A study of Mus musculus with 4 samples.

Results

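The 6 Iroquois homeobox genes of the mouse, Irx1 to Irx6, were read across 4 organ primordia. Their probes were found by matching each probe's accession to RefSeq symbols, which gave 9 probes of 41105 on the array and 6 genes of the 16995 that had a symbol. Irx2 had 3 probes, Irx1 had 2 and the others had 1 each. The samples were total RNA from lung, esophagus, stomach (spelled "gustric" in the label) and intestine of E11.5 embryos of the outbred ICR strain, and the labels name no genetic change or treatment. The extraction protocol given for every sample speaks of the stomach alone, and RNA was amplified with a kit for low input. Each organ was measured on 1 array, so no value has a replicate and no test between organs could be made. The labels do not say how many embryos went into a sample.

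Iroquois genes encode transcription factors of the TALE class, whose homeodomain carries an extra loop of amino acids, and they take their name from a gene complex that patterns the thorax of the fly. In the mouse they lie in 2 clusters of 3 genes, IrxA with Irx1, Irx2 and Irx4 and IrxB with Irx3, Irx5 and Irx6. Members are known for regional expression in the neural tube, heart, limb, kidney and branching lung, where Irx1 and Irx2 are found in the epithelium, and Irx4 is known as a gene of the heart ventricle.

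Levels are log2 processed signal minus the 75th percentile of the array's probes, and the error given with a level is the scanner software's own estimate for that spot, which leaves out dissection, RNA and labelling. A level can be compared between organs for the same probe, not between probes. The lung array was dim: 39.0% of its spots were well above background against 67.9% to 74.0% on the other arrays, and its lowest level well above background was -2.39, where esophagus reached -5.75, stomach -5.78 and intestine -6.92. A level below that limit in lung is therefore unresolved. Where 1 organ was not well above background its level entered at that limit or at its own value if higher, and the fold is written "at least". The labels of 3 organs were checked with Nkx2-1 of lung, highest in lung at 2.47, Barx1 of stomach mesenchyme, highest in stomach at 4.49, and Cdx2 of intestinal epithelium, highest in intestine at 1.90. Another planned check, Sox2, stood at 1.09 in esophagus and 0.63 in stomach, under 2-fold apart. It did not separate these organs, so the esophagus label had no marker of its own.

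Irx1, Irx2 and Irx5 were high in lung and esophagus and low in stomach and intestine. Irx3 was seen in esophagus and was not well above background in stomach and intestine. It could not be read in lung, whose limit of -2.39 lay above the Irx3 level in esophagus (-3.69). Irx4 and Irx6 were dim in esophagus, stomach and intestine, at most 3.02-fold apart for Irx4 and 1.76-fold for Irx6, and could not be read in lung. Of the 6 genes, 4 were at least 4-fold apart between some pair of organs (Irx1, Irx2, Irx3 and Irx5), against 10.4% of 14061 genes that could be compared in at least 1 pair. Irx3 entered this count at a lower bound, through esophagus alone. In bulk RNA, fewer cells that express a gene and less RNA in each cell cannot be told apart.

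**Figure D1:**
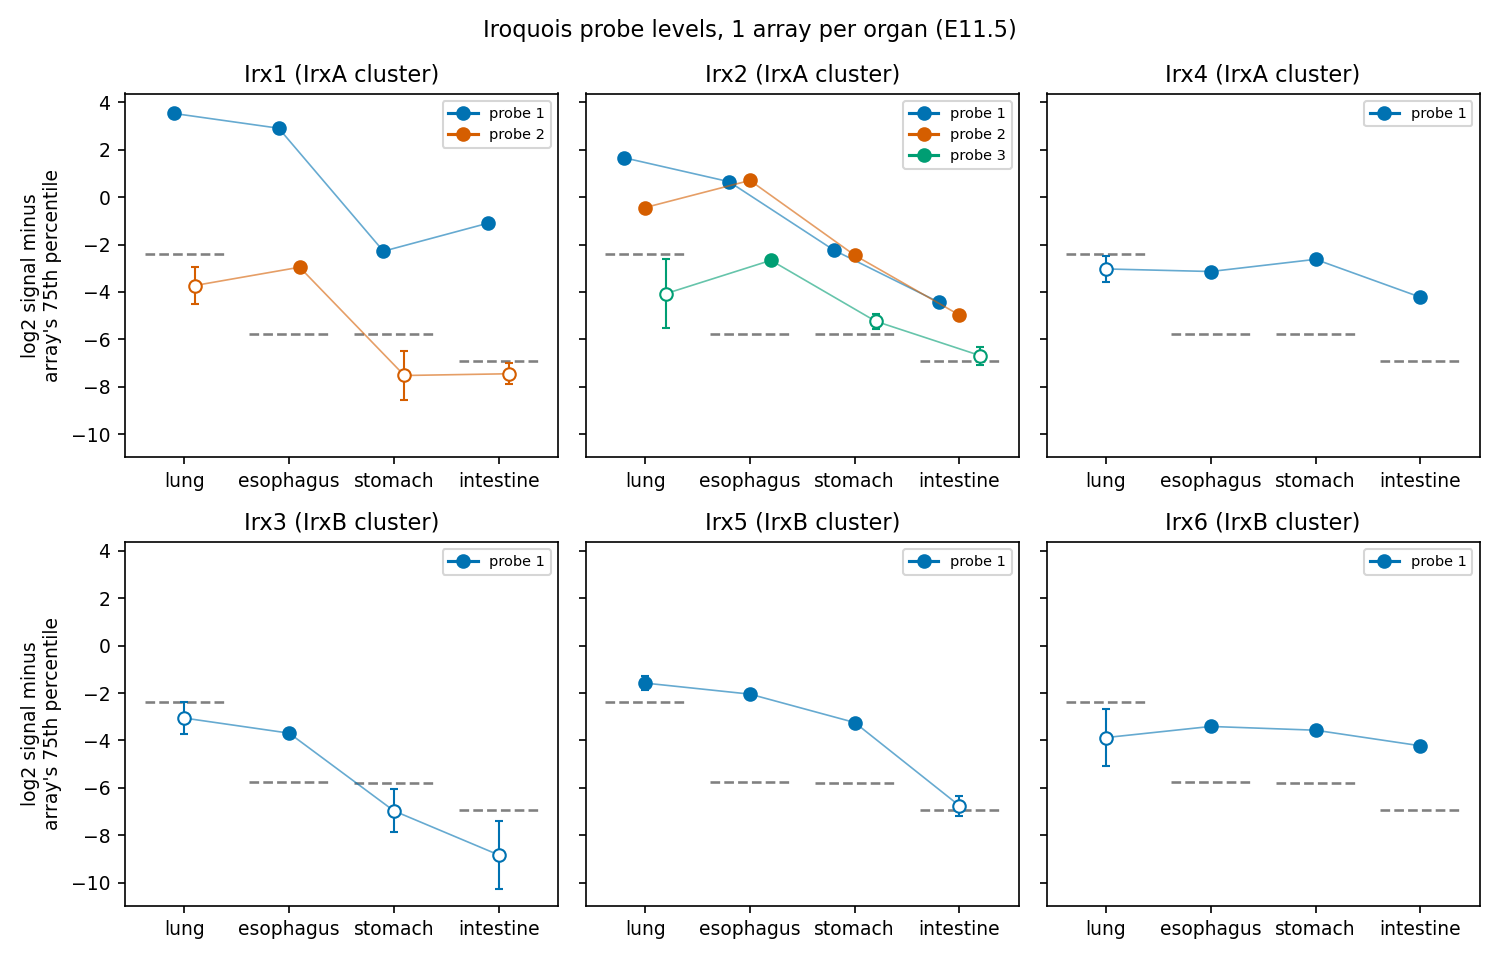
Level of each Iroquois probe (log2 signal minus the array's 75th percentile) in lung, esophagus, stomach and intestine, 1 array each; bars are the scanner software's spot error, open circles are not well above background, and dashed lines mark each array's lowest level well above background. Irx1 falls from 3.52 in lung and 2.90 in esophagus to -2.28 in stomach, while Irx4 and Irx6 lie between -2.62 and -4.22 on the 3 arrays where they were read.

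RefSeq promoter windows of assembly GRCm38.p6, from 250 bases before to 50 after the start, were found for 3 of the 6 genes. No window was available for Irx1, Irx5 or Irx6. Of the 3 genes shown, Irx2 differed between organs, Irx3 was read in 1 organ only and Irx4 differed by less. Irx2 lies at chr13:72628570-72628869 on the + strand, Irx4 at chr13:73260247-73260546 on the + strand and Irx3 at chr8:91801605-91801904 on the - strand. Capitals mark the GC box GGGCGG, searched on both strands.
Irx2: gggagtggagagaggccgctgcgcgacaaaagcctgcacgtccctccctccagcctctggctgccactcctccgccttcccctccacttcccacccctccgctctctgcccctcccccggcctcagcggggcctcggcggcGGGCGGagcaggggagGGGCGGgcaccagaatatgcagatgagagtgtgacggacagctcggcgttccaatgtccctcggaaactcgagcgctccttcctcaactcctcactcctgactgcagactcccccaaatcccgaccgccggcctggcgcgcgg
Irx4: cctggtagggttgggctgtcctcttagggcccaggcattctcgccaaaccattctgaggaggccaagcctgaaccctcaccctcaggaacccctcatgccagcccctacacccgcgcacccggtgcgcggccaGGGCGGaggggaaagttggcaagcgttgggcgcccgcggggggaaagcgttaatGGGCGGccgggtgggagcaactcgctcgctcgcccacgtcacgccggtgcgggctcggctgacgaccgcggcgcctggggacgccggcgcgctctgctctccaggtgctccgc
Irx3: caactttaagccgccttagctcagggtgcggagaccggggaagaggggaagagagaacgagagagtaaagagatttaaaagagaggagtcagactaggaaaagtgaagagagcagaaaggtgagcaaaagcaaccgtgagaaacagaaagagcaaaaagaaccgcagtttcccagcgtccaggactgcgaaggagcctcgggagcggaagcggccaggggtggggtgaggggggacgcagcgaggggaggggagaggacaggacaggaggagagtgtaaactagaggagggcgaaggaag

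The GC box was present at 2 places in the Irx2 window and at 2 in the Irx4 window, and the Irx3 window held no match. It is found in 35.7% of 32851 RefSeq windows of this length. The Irx2 and Irx4 windows were rich in G and C, at 69% and 70.7%, with 25 and 31 CpG dinucleotides, and the Irx3 window had 56% and 14. The median over all windows was 52.7% and 7 CpG. No match was found in the 3 windows for ACANNTGT, an element bound by Iroquois proteins (7.38% of all windows), for TGACAG, bound by other TALE proteins (19.2%), or for the TATA box TATAAA (13.6%), each searched on both strands. Irx2 and Irx4, of the same cluster, were alike in these counts. Among esophagus, stomach and intestine, where both genes were read, Irx2 differed up to 33.6-fold and Irx4 up to 3.02-fold. A link between the windows and the levels was not tested.

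In the IrxA cluster, the level of Irx1 by its brighter probe was 3.52 ± 0.14 in lung and 2.90 ± 0.14 in esophagus. It was -2.28 ± 0.15 in stomach and -1.10 ± 0.14 in intestine. Lung and esophagus were high, and stomach was the lowest. Irx1 was 55.8-fold higher in lung than in stomach and 24.6-fold higher in lung than in intestine. Before scaling its signal was 367 in lung and 462 in intestine, so lung over intestine rests on the scaling of the dim lung array. From esophagus the difference was 36.3-fold to stomach and 16.0-fold to intestine. Lung and esophagus were 1.54-fold apart, less than the 2-fold used for counting, and normexp, another background correction, turned the sign (lung minus esophagus -0.55, log2). Normexp added an offset of 50 to every spot, above the lung 75th percentile of 32.0. Its folds for dim signals are partly set by that offset. Under normexp the fold of lung over stomach was 12.9, of lung over intestine 8.78 and of esophagus over stomach 18.9. Intestine was 2.27-fold above stomach, with processed signals of 462 and 65.8, but 1.47-fold above it under normexp and 1.55-fold with the mean of both probes, each of which ends the 2-fold call.

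The second Irx1 probe was well above background in esophagus alone, at -2.96 ± 0.15. It placed esophagus at least 7.05-fold above stomach and at least 15.6-fold above intestine, in the same direction as the first. It could not resolve lung, where its signal was 2.42, nor the order of stomach and intestine. The rise of Irx1 from stomach to intestine thus rests on 1 probe.

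Irx2, which neighbours Irx1, stood by its brightest probe at 1.65 ± 0.15 in lung and 0.65 ± 0.14 in esophagus. Stomach had -2.23 ± 0.15 and intestine -4.42 ± 0.16. These levels descended from lung through esophagus and stomach to intestine. Esophagus was 7.36-fold above stomach and stomach 4.56-fold above intestine. Lung was 14.8-fold above stomach and 67.5-fold above intestine, and esophagus 33.6-fold above intestine. Under normexp lung over stomach was 2.32 on the log2 scale, against 3.89, the folds over intestine were 16.4 and 14.4, and esophagus over stomach was 4.38-fold.

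The second Irx2 probe was well above background on all 4 arrays, with -0.44 ± 0.16 for lung and 0.70 ± 0.14 for esophagus. Stomach had -2.45 ± 0.15 and intestine -4.97 ± 0.16. It repeated the steps from esophagus to stomach (8.89-fold) and from stomach to intestine (5.74-fold). For lung the probes disagreed. The brightest probe put lung 2.01-fold above esophagus and the second put it 2.21-fold below, so the order of these organs is not settled. Against stomach, lung was 14.8-fold higher by the first and 4.03-fold higher by the second. Before scaling the second probe's signal was 23.6 in lung and 58.5 in stomach, so its fold rests on the scaling. The third probe was well above background in esophagus alone (-2.67 ± 0.15), at least 5.92-fold above stomach and at least 16.2-fold above intestine.

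Irx4, the ventricular gene of the cluster, was at -3.14 ± 0.15 in esophagus and -2.62 ± 0.15 in stomach, with -4.22 ± 0.15 in intestine, and was not well above background in lung (-3.03). Stomach was the highest of the 3 organs and intestine the lowest. Esophagus and stomach were 1.43-fold apart, stomach was 3.02-fold above intestine and esophagus 2.11-fold above intestine. The last of these fell to 1.49-fold with each array centred on its median and to 1.40-fold under quantile normalization. The unscaled signals were 43.1, 51.9 and 53.3 from esophagus to intestine, so the lower level in intestine came with a nearly equal signal on an array whose 75th percentile was 991, against 379 and 320.

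In the IrxB cluster, Irx5 followed the order lung, esophagus, stomach, intestine. Its level was -1.58 ± 0.31 in lung and -2.05 ± 0.15 in esophagus. Stomach had -3.24 ± 0.16, and the gene was not well above background in intestine (-6.75). Lung and esophagus were 1.38-fold apart, a log2 difference of 0.46 with a combined spot error of 0.34, and 2.55-fold apart under normexp. The unscaled signal of Irx5 was 10.7 in lung, 91.7 in esophagus and 33.8 in stomach, so its lung level rests on the scaling. Lung was 3.16-fold above stomach and esophagus 2.29-fold above stomach. The latter became 1.99-fold under median centring and 1.32-fold under normexp. Intestine was the lowest: lung was at least 35.9-fold, esophagus at least 26.0-fold and stomach at least 11.4-fold above it. Under normexp these became 11.6-fold, 4.56-fold and 3.46-fold, and under quantile normalization 23.8-fold, 12.5-fold and 6.04-fold.

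Irx3, which is paired with Irx5 in limb and heart patterning, was well above background in esophagus alone, at -3.69 ± 0.17 with a signal of 29.4. Esophagus was at least 4.24-fold above stomach and at least 9.39-fold above intestine. Under normexp, whose offset of 50 exceeds the Irx3 signal, the first was 1.20-fold, which ends the 2-fold call, and the second 3.15-fold. Under quantile normalization they were 2.75-fold and 4.45-fold. In lung the Irx3 level of -3.06 ± 0.67 lay under that array's limit of -2.39, so lung could not be placed above or below esophagus.

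Irx6 was at -3.41 ± 0.16 in esophagus and -3.57 ± 0.17 in stomach, with -4.22 ± 0.16 in intestine, and was not well above background in lung. No pair of organs was 2-fold apart for Irx6: esophagus was 1.76-fold above intestine and stomach 1.58-fold. Under normexp those reached 2.02-fold and 2.11-fold, and under quantile normalization 1.17-fold and 1.21-fold. Its signals of 27.0 in stomach and 53.1 in intestine ran the other way from its scaled levels.

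The order of levels, highest first, was therefore lung, esophagus, intestine, stomach for Irx1 and lung, esophagus, stomach, intestine for Irx2 and Irx5. Lung and esophagus as neighbours in that order were not separated: they were under 2-fold apart for Irx1 and Irx5, and probes disagreed for Irx2. Among genes with a second probe, the disagreement of probes about an organ difference had an SD of 1.20 (log2) for lung over esophagus, 0.51 for esophagus over stomach and 0.75 for stomach over intestine. Irx1, Irx2 and Irx5 differed by more than that between esophagus and stomach, and all 3 also between stomach and intestine, with Irx5 at its lower bound. This did not hold for Irx1 between stomach and intestine under normexp (a size of 0.56) or with the mean of both probes (0.63), nor for Irx5 between esophagus and stomach under normexp (0.40). Irx3 also exceeded the SD between esophagus and stomach (at least 2.08, but 0.27 under normexp), and Irx4 between stomach and intestine (1.59). Irx4 just exceeded it between esophagus and stomach (a size of 0.513 against 0.508), with stomach higher.

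**Figure D2:**
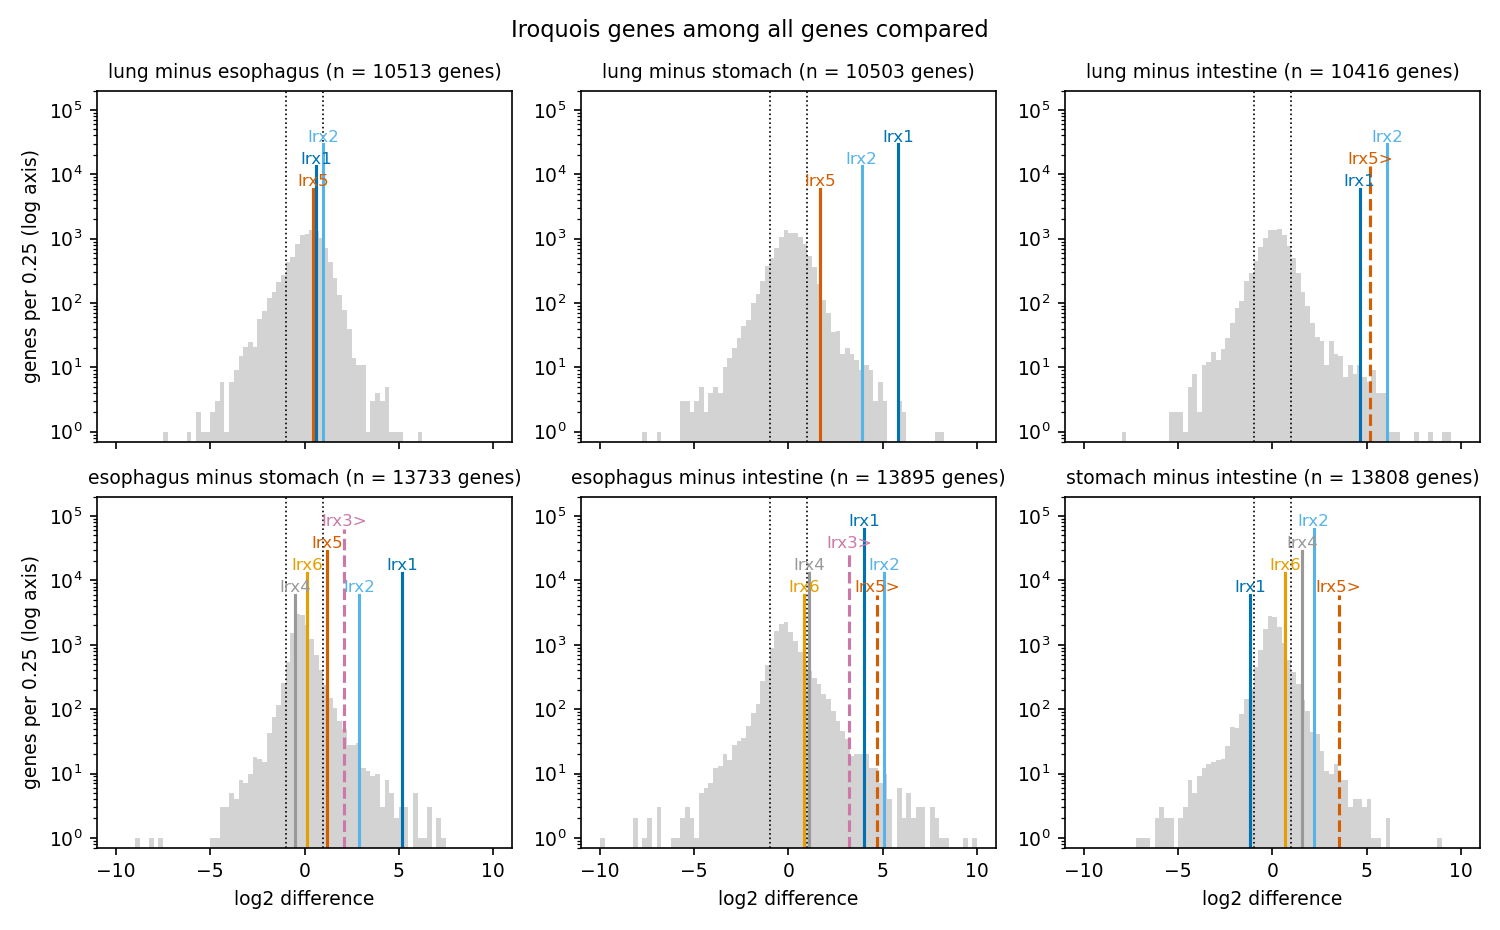
Log2 difference between organs for all genes compared (grey histogram, log count axis, 1 panel per organ pair) with Iroquois genes as coloured lines; dashed lines with > are lower bounds and dotted lines mark 2-fold. Irx1 lies at 5.80 for lung minus stomach and 5.18 for esophagus minus stomach, while no Iroquois gene is far from 0 for lung minus esophagus, where Irx2 is highest at 1.01.

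Well above background by at least 1 probe were 3 of the 6 Iroquois genes in lung and 6 in esophagus, with 5 in stomach and 4 in intestine, against 56.2%, 78.3%, 78.7% and 84.1% of all genes with a symbol. For 6 genes these counts are near the shares over all genes, and nothing is read from them. Irx3 and Irx5 were out of range in intestine. With the more lenient flag for a positive and significant signal, all 6 Iroquois genes were seen in lung, and 5 in intestine, all but Irx3.

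Between esophagus and stomach, all 6 genes could be compared and 4 were at least 2-fold higher in esophagus (Irx1, Irx2, Irx3 and Irx5), beside 5.63% of 13733 genes. The median difference of the 6 was at least 1.64, since it uses the lower bound of Irx3, and the median over all genes was -0.16. Between esophagus and intestine, 5 were at least 2-fold higher in esophagus, all but Irx6, beside 11.9% of 13895 genes, with a median of at least 3.61, again through the bound of Irx3, and -0.13 over all genes. With only genes well above background on both arrays the count was 3 in each pair, which leaves out Irx3 in both and Irx5 against intestine. In neither pair was an Iroquois gene 2-fold lower in esophagus, where 4.27% and 8.71% of genes were. Irx3 in both pairs, and Irx5 against intestine, were compared only because esophagus was well above background. Their direction was therefore set by the filter, and nothing is read from it. In either direction, 9.90% of genes were 2-fold apart between esophagus and stomach and 20.6% between esophagus and intestine.

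Between stomach and intestine, Irx2, Irx4 and Irx5 were at least 2-fold higher in stomach, beside 7.52% of 13808 genes, and Irx1 was at least 2-fold higher in intestine, beside 4.87%. Of the others, Irx6 was under 2-fold and Irx3 could not be compared. Irx5 was compared only because stomach was well above background, so its direction was set by the filter. The median of the 5 genes compared was 1.59, against 0.04 over all genes.

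With lung, only Irx1, Irx2 and Irx5 could be compared, and these are the genes bright enough to pass on that array, so a direction towards lung was in part set by the filter and nothing is read from the counts. All 3 were at least 2-fold higher in lung than in stomach (14.0% of 10503 genes were) and than in intestine (12.2% of 10416). Over all genes, 9.87% and 8.40% were lower in lung and 23.9% and 20.6% were apart in either direction. In lung over esophagus 1 of the 3, Irx2 at 2.01-fold, reached the threshold, beside 16.2% of 10513 genes (9.42% were higher in esophagus, 25.6% in either direction), and it fell below it or reversed as described. Centring arrays on their medians moved the median of all genes for lung minus esophagus from 0.28 to 0.91 and the genes counted as higher in lung and in esophagus from 1706 and 990 to 4537 and 459, and then Irx1, Irx2 and Irx5 stood at 1.21, 1.59 and 1.05.

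A pattern was described from Irx1, Irx2 and Irx5 after their values had been seen: at least 2-fold higher in both lung and esophagus than in both stomach and intestine. Among the 9515 genes well above background in lung and esophagus, 125 met it (1.31%), and since these 3 genes defined it and are the Iroquois genes in range there, their count is a description only. The margin between the lower of the high organs and the higher of the low ones was 16.0-fold for Irx1, 7.36-fold for Irx2 and 2.29-fold for Irx5. The margin of Irx5 fell below 2-fold under median centring and normexp, which leaves 2 genes, and the second probe leaves 1. Another order, also described after the values had been seen, was a fall of at least 2-fold at each step from esophagus to stomach to intestine. Irx2 and Irx5 met it among the 5 Iroquois genes read in esophagus and stomach, beside 1.09% of 12917 genes. Since Irx2 and Irx5 defined this order, their count is a description only. For Irx5 the first step was 1.99-fold under median centring and 1.32-fold under normexp, so the order then holds for Irx2 alone of these genes.

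Of the 6 genes, 3 were set apart in 1 organ or more. By its brightest probe Irx2 was at least 2-fold above every other organ in lung (4.45% of 14507 genes were), a call that 5 settings ended, its second probe among them. Irx1 was at least 2-fold below every other organ in stomach (0.331%), which ended under normexp and with the mean of probes. Irx2 and Irx5 were at least 2-fold below every other organ in intestine (1.05%). In esophagus no Iroquois gene was above every other organ (1.12%), nor any in stomach (0.372%) or intestine (1.11%), and none was below every other organ in lung (2.24%) or esophagus (0.200%). For esophagus, without the lung array, 4 were above all others (Irx1, Irx2, Irx3 and Irx5). Irx3 was in range in esophagus alone, so its direction was set by the filter. Without the esophagus array 3 were above all others in lung, and without the intestine array 3 were below all others in stomach (Irx1, Irx2 and Irx5 in both cases).

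The other TALE genes, a list of 12 that holds the Meis, Pbx, Pknox and Tgif genes and Mkx, are partners or relatives of Iroquois factors, and Meis and Pbx proteins bind DNA together with Hox proteins. All 12 had a probe, 10 were well above background in lung and 12 on each other array. At least 2-fold between some pair of organs were 7 of the 12, and 0 were 4-fold apart, beside 43.2% and 10.4% of 14061 genes and 5 and 4 of the 6 Iroquois genes. By pair, 4 of 10 were 2-fold apart for lung and intestine (20.6% of all genes), 3 of 12 for esophagus and intestine (20.6%), 1 of 10 for lung and esophagus (25.6%) and 1 of 11 for lung and stomach (23.9%). Between stomach and intestine 0 of the 12 were (12.4%), and between esophagus and stomach 1 was (9.90%), Mkx, 2.08-fold higher in stomach.

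The TALE genes with the largest differences involved lung or intestine. Pknox2, a relative of Meis, stood at -0.58 in intestine and -2.17 in lung, 3.02-fold apart. Pbx3, a Hox cofactor, stood at 3.99 in lung and 2.61 in intestine, a difference of 1.38 (log2). Meis1 was 2.70-fold higher in lung than in esophagus by 1 probe and 9.06-fold lower by its second, so its probes disagree on direction. Median differences of the list ran from -0.39 (esophagus minus stomach) to 0.57 (lung minus esophagus), where the medians over all genes were -0.16 and 0.28.

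**Figure D3:**
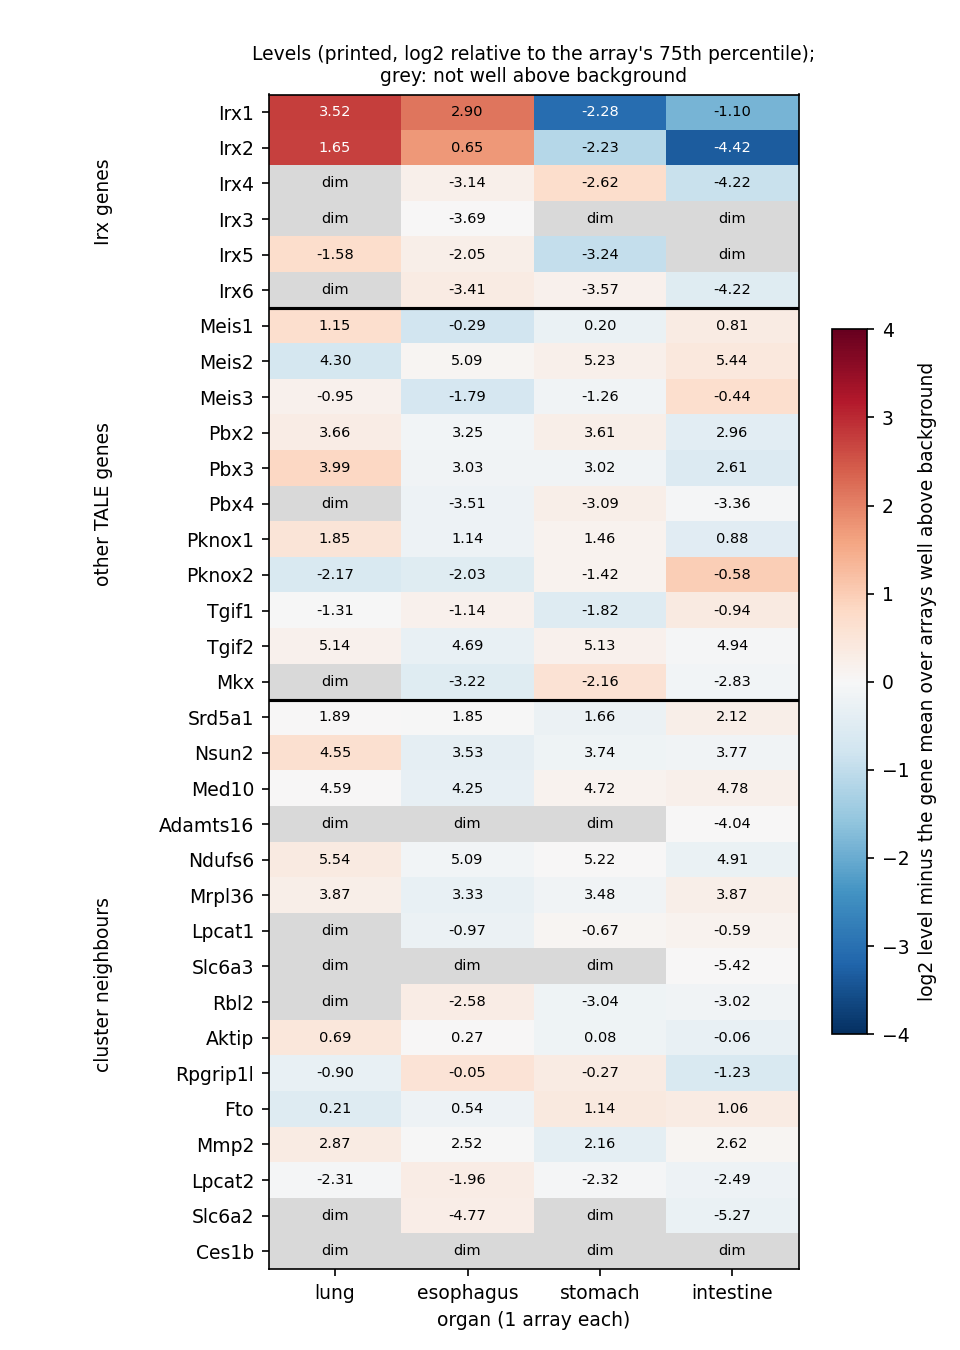
Levels of the Iroquois genes, 11 of the other TALE homeobox genes and the genes next to the IrxA and IrxB clusters, by organ (1 array each), printed in the cells as log2 relative to the array's 75th percentile; colour is the level minus the gene's mean over arrays well above background, and grey cells are not well above background. Irx1 and Irx2 change colour across the row, while Pbx2 (2.96 to 3.66) and Tgif2 (4.69 to 5.14) stay pale.

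Genes beside the clusters were read next. The 4 nearest protein-coding genes with a probe on each side were Srd5a1, Nsun2, Med10 and Adamts16 before IrxA, Ndufs6, Mrpl36, Lpcat1 and Slc6a3 after it, Rbl2, Aktip, Rpgrip1l and Fto before IrxB, and Mmp2, Lpcat2, Slc6a2 and Ces1b after it. Of the 15 that could be compared, 5 were at least 2-fold apart between some pair of organs and 0 were 4-fold apart, beside the 43.2% and 10.4% of all genes. These were Lpcat1 (intestine at least 3.48-fold above lung), Adamts16 (intestine at least 3.32-fold above stomach), Rpgrip1l (esophagus 2.27-fold above intestine, 1.30-fold below by its second probe), Nsun2 (lung 2.02-fold above esophagus) and Slc6a2 (esophagus at least 2.01-fold above stomach).

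Fto, whose introns hold enhancers known to contact Irx3, stood at 0.21 in lung and 0.54 in esophagus, with 1.14 in stomach and 1.06 in intestine. Its level was highest in stomach, where Irx3 was not well above background, and 1.90-fold lower in lung. Mmp2, next to Irx6, stayed between 2.16 and 2.87. Of the 10 neighbours well above background in lung, none was at least 2-fold higher in both lung and esophagus than in both stomach and intestine. Among 9515 genes 1.31% were, so for 10 genes none is near that share and nothing is read from it.

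A list of 5 genes reported elsewhere to respond to Irx3, Irx4 or Irx5 was read next, and 3 of the 4 in range were at least 2-fold apart between some pair of organs, beside 43.2% of all genes. Cxcl12, a chemokine, was 2.34-fold higher in intestine than in lung (9.53-fold by its second probe), Gja1, the gap junction protein connexin 43, was 2.03-fold higher in lung than in stomach, and Kcnd2, a potassium channel, 2.01-fold higher in lung than in stomach. Gja5 was under 2-fold in every pair, and Bmp10, a heart growth factor, was not well above background on any array. Among the 3 organs other than lung, 0 of the 4 were 2-fold apart in any pair, beside 9.90%, 20.6% and 12.4% of all genes, which for 4 genes is near those shares.

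Genes with the most similar profile over the 4 arrays were named by the smallest root mean square difference from each member after centring. Among those for Irx1 were Nebl, a muscle actin-binding protein (0.62), and Ccno (0.73), and none of 9377 genes lay within 0.5. For Irx2 they were Lox, a collagen cross-linking enzyme (0.21), Iigp1, an interferon-induced GTPase (0.35), and Cdh8, a cadherin (0.64). For Irx5 they were Elf5, an epithelial ETS factor (0.30), Scrg1 (0.33) and Aqp5, a water channel of distal lung (0.40).

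Lox, closest to Irx2, stood at 0.93 in lung and -0.12 in esophagus, with -3.38 in stomach and -5.00 in intestine. Elf5, closest to Irx5, stood at -1.37, -1.55, -3.45 and -6.21 in the same order. For Irx4 the closest were Dtna (0.03), Hoxa5 (0.05) and H2ac20 (0.06), and for Irx6 Bsdc1 (0.02), Tbc1d9 (0.03) and Ankra2 (0.03). These profiles were shared by many: 1682 genes lay within 0.5 of Irx4 and 5931 within 0.5 of Irx6. Both include a lung value that was not well above background, as Irx5 includes such a value in intestine, so these distances are not exact. With 4 arrays, likeness describes these samples only.

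**Figure D4:**
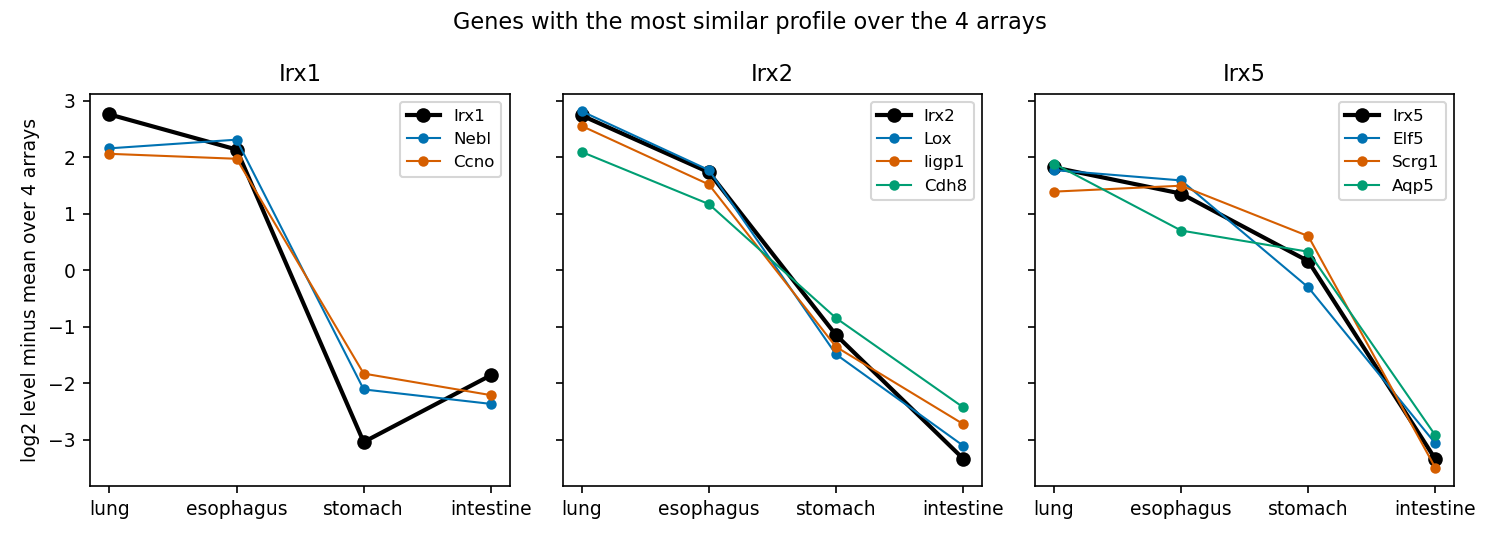
Levels of Irx1, Irx2 and Irx5 (black) and genes with the most similar profiles (coloured, 2 for Irx1 and 3 for the others), each minus its mean over the 4 arrays (log2), by organ. Lox follows Irx2 within a root mean square difference of 0.21, and Nebl and Ccno do not share the rise of Irx1 from stomach to intestine.

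Markers of tissues that also carry Iroquois RNA were read beside these results. For lung epithelium, all 8 listed markers were in range in lung and esophagus and 6 in stomach and intestine, where Nkx2-1 and Sftpc were not well above background. The summed level (in multiples of the 75th percentile) was 41.6 in lung, against 24.3, 25.5 and 27.5 from esophagus to intestine, to which Id2 (levels of 3.90 to 4.51) contributed most. In esophagus Nkx2-1 was at least 4.67 and Sftpc at least 4.03 (log2) above stomach. General epithelial markers, 7 in all with only Esrp1 out of range in lung, summed to 45.0, 32.9, 96.1 and 48.1 in the same order, led by Krt18 and Krt8 (5.93 and 4.94 in stomach). Their median level ran 0.27, 0.05, -0.07 and -0.41 from lung to intestine, but the markers did not share 1 order. Cdh1, Grhl2 and Cldn6 were lowest in intestine, Epcam (-0.76) and Krt18 (4.22) in esophagus and Krt8 (3.36) in lung. Their part in the Iroquois levels was not tested.

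Heart muscle markers were high on the esophagus array: all 9 were in range there, with a summed level of 116 against 8.22 in lung (3 in range), 3.27 in stomach (7) and 3.93 in intestine (8). Limb and somite markers (5 of 6 in range in esophagus, all but Myf5) summed to 16.3 in esophagus and 2.26, 1.12 and 0.26 in lung, stomach and intestine. Nephric and gonad markers (7 of 8 in esophagus, stomach and intestine, with Pax8 out of range on every array) summed to 6.42, 21.7, 12.0 and 2.68 from lung to intestine. Neural markers (6 of 9 in esophagus) summed to 1.26, 6.79, 4.45 and 2.17, and Neurog2 was out of range on every array. All 4 sums were highest in esophagus, where Irx3 was well above background, though lung could not be read for Irx3. The part of these tissues in the esophagus levels of Irx1, Irx2, Irx3 and Irx5 was not tested.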

How the data were processed

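The deposited scanner files give spot intensity on a linear scale, background-subtracted and detrended by Agilent Feature Extraction 10.5.1.1, per the file headers (protocol GE1_105_Dec08, array design 014868, sequences of build mm8). Their 0 or 1 spot flags and error estimates were used as deposited. RNA was labelled with Cy3 in 1 colour, per the labels' protocols, and the 4 arrays share 1 slide. The deposited series table holds log2 values whose scale and centring are not stated; they follow the levels computed here with Pearson r from 0.99996 to 0.99998, with column medians of -3.56, -2.97, -3.17 and -3.47 from lung to intestine.

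Spots flagged as outliers were dropped, copies of a probe averaged and 69 of 41174 probes left out. No spot was saturated. Accessions gave 24338 probes 1 RefSeq symbol (59.2%); 16767 have none and are unnamed. A level is log2 signal less the 75th percentile over probes, and a gene's value is that of its brightest probe. A gene at least 2-fold apart was counted; with 1 array per organ there is no test. Named genes are all members, the 3 most alike profiles per member read on at least 3 arrays, and up to 4 per list among those 2-fold apart; any others in those lists were named after their values were seen. Of the genes this rule names, 2 are not reported here. Members, lists and tissue markers were chosen with earlier results of these data known. Calculations used Python 3.11.15, numpy 2.4.6, pandas 2.3.3, R 4.3.3 and limma 3.58.1 and were tested on simulated data. Alternatives were the scaling, background correction, probe choice, dim-probe filter and leaving out an array. With 1 array per organ, precision between organs is unknown.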

Additional observations from a re-analysis of the deposited data

How the results depend on the processing

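No paired analysis was possible because each organ has 1 array. The planned normexp correction, with an offset of 50, was run on the median spot signal in place of the mean, chosen after seeing the data. A count moved when it left 1.5 times its main value, and a difference when it shifted by more than the SD between probes of a gene: 145 of 185 counts and 185 of 211 differences of single genes stayed within that. The cause of the changes was not tested, except that a second probe exists for Irx1 and Irx2 alone, a 4-fold threshold is stricter and fewer organs leave fewer to exceed.

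Lung minus esophagus of Irx2 reversed to -0.51 when all its probes were averaged and to -1.14 by the second probe. The count of Iroquois genes apart between lung and esophagus, 1 in the report, was 0 at 4-fold, with the mean of probes, with quantile normalization and with a percentile taken from probes in range on every array, and 3 with median centring. The count above every other organ in lung was 0 under the same settings other than 4-fold and with the second probe, and 3 with median centring. With the second probe the counts were 2 for esophagus and stomach and for esophagus and intestine, 1 for lung and stomach, lung and intestine, and stomach and intestine, 1 above every other organ in esophagus, 1 below in intestine, 0 below in stomach and 1 for the pattern shared by lung and esophagus, which was 2 under median centring, normexp and with only genes in range on every array, and 4 with no filter. Normexp gave 2 for esophagus and stomach and 0 below every other organ in stomach, as did the mean of probes for the latter. With only genes well above background the counts were 3 for esophagus and intestine and 1 below every other organ in intestine. With no filter they were 5 for lung and intestine and 4 below every other organ in intestine. At 4-fold, stomach and intestine gave 2. With every probe required, 1 gene was detected in lung, 3 in stomach and 2 in intestine, and the lenient flag gave 6 in lung. Without 1 array, the count above every other organ ranged from 0 to 4 in esophagus and from 1 to 3 in lung, and below every other organ from 1 to 3 in stomach and from 2 to 3 in intestine.

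For the other TALE genes, median centring gave 6 for lung against esophagus, 3 for lung against stomach and 3 for stomach against intestine, and the percentile from probes in range on every array gave 2 in each of those lung pairs and 0 between esophagus and stomach. The dim lung array limits every comparison with lung.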
